A study of Mus musculus with 17 samples.

Results

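The 9 genes described here, Pf4, Ppbp, Vwf, Gp1bb, Gp9, Gp5, Itga2b, Treml1 and Clec1b, encode proteins by which megakaryocytes and their platelets are recognised. They were taken by name from the gene names of the array, 9 of 28090, and were read by 11 probes. Their mRNA was measured in 6 populations sorted from the bone marrow of female C57Bl/6 mice of 6 to 8 weeks, with at least 10 animals pooled for each replicate. Long-Term HSCs (LT-HSC; Lin-, c-kit+, Sca1+, CD34-, FLT3-), Short-Term HSCs (ST-HSC; CD34+, FLT3-) and Multipotent Progenitors (MPP; CD34+, FLT3+) came from one FACS sort of marrow enriched for c-kit. Common Myeloid Progenitors (CMP; Lin-, c-kit+, Sca1-, CD34 mid, FcRg mid), Granulocyte-Monocyte Progenitors (GMP; CD34+, FcRg+) and Megakaryocyte-Erythroid Progenitors (MEP; CD34-, FcRg-) came from a separate sort. The lineage antigens used for depletion were B220, CD3, GR-1 and Ter119, and the list named no megakaryocyte or platelet antigen. LT-HSC had 2 arrays, of which 1 was a pool of numbers 2 and 3, and each of the other 5 populations had 3. In the text that follows, stem cells stands for the mean of LT-HSC and ST-HSC. Since replicates were pools of animals, a p-value measures the spread between pools. That spread also holds differences between slides and scanning runs, where arrays of a population were divided among them. It was estimated jointly over the 6 populations.

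Platelets are shed by megakaryocytes, which descend from stem cells through progenitors that can also give rise to red cells. The platelet carries α-granules filled with chemokines and adhesive proteins, and on its surface the GPIb-IX-V complex binds von Willebrand factor while the integrin αIIbβ3 binds fibrinogen. Some of these genes, Itga2b and Vwf among them, are also known from haematopoietic stem cells. The question put to the arrays was whether mRNA of these genes was higher in the populations at the top of the hierarchy or in MEP, the progenitor named for the lineage.

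Several measurements bear on all values. Each array was hybridised with a single sample in 1 color, and the 75th percentile of spot intensity was between 243.3 and 533.8 on 16 arrays. On the LT-HSC array without a number it was 53.1, and 41.4% of spots there were well above background, against 48.2% to 70.1% on the others. File headers placed the arrays on 6 slides in 3 scanning runs: both numbered replicates of CMP, GMP and MEP in the first, 1 array of every population but LT-HSC in the second, and both LT-HSC arrays with the numbered ST-HSC and MPP arrays in the third. The only slide that held a stem cell array and a MEP array carried the unnumbered ST-HSC and MEP. All 12 erythroid markers on the array, Klf1 and Epor among them, had their highest mean in MEP, and all 6 granulocyte and monocyte markers had it in GMP, as their labels say. Of 8 stem cell markers, 6 were highest in LT-HSC. All 5 mature neutrophil markers and all 6 B cell markers also had their highest mean in LT-HSC, although GR-1 and B220 were among the antigens depleted. Their mean log2 level was 14.46 to 15.35 for the neutrophil list and 6.74 to 7.05 for the B cell list on the LT-HSC arrays, against 12.46 to 13.77 and 5.28 to 5.74 on the MEP arrays. Among the B cell markers, however, Ebf1 and Pax5 were above background on no LT-HSC array and Cd79a on only 1, so the rank of their means says little.

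The promoters of 4 members are shown because these genes had the largest differences between stem cells and MEP, the largest gap between LT-HSC and ST-HSC, or the opposite direction. The sequences are the 250 bases before the RefSeq start on GRCm38.p6, written along the gene, for Pf4 at chr5:90772185-90772434 (+ strand), Treml1 at chr17:48359666-48359915 (+ strand), Itga2b at chr11:102469884-102470133 (- strand) and Gp5 at chr16:30310782-30311031 (- strand). Capitals mark a GATA motif (AGATAA or AGATAG, and the same with T as first letter, on either strand) or an ETS motif (CCGGAA or CAGGAA on either strand), the letters that GATA and ETS family factors of the megakaryocyte lineage are known to bind. No letters of a GATA and an ETS match overlapped in these 4 windows.
Pf4: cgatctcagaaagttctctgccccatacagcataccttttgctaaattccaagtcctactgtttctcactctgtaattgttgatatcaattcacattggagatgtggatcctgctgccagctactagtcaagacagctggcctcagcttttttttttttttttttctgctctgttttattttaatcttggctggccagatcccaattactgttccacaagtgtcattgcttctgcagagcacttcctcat
Treml1: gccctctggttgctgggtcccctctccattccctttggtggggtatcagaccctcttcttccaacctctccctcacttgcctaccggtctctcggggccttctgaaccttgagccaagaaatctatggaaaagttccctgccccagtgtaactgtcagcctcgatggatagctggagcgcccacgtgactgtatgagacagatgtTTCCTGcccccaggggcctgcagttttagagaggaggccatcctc
Itga2b: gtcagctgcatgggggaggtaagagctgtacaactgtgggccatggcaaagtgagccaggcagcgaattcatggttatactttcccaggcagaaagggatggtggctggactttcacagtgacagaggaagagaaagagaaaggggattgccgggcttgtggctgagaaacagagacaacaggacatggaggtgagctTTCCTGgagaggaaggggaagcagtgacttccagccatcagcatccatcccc
Gp5: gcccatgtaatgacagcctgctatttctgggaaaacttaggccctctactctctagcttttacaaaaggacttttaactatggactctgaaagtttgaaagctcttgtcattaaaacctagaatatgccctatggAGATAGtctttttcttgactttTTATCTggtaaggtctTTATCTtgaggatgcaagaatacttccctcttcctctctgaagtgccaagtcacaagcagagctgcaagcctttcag
Gp5 held 3 GATA matches, at bases 115 to 110, 93 to 88 and 77 to 72 before the start, and no ETS match. Treml1 and Itga2b each held 1 ETS match, at bases 45 to 40 and 52 to 47 before the start, and Pf4 held neither. Of the 8 members in the promoter table, 3 had a GATA match (Gp5, Gp1bb and Clec1b) and 3 an ETS match (Treml1, Itga2b and Ppbp). Over all 32817 promoters of the same length, 26.6% had a GATA match and 35.0% an ETS match, and no test was made of the members' counts.

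All 9 genes differed among the 6 populations (limma F-test, Benjamini-Hochberg adjusted p from 7.90e-07 for Treml1 to 0.00957 for Ppbp), a call made for 40.6% of 41174 probes. In the comparison of stem cells with MEP, 8 of the 9 genes were higher in stem cells and 1, Gp5, was lower. Of all probes, 13.6% were called higher and 20.0% lower. Each gene was read by its brightest probe, whereas these shares are over all probes. Of those, 28589 were well above background on at least 3 arrays. The median difference of the 9 genes was 2.03 on the log2 scale, against -0.02 for all probes. The arrays of stem cells and MEP did not overlap for 6 genes (Pf4, Treml1, Vwf, Gp9, Gp1bb and Gp5), which was the case for 30.1% of probes. In bulk samples such as these, fewer cells with a transcript and less of it per cell cannot be told apart.

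**Figure D1:**
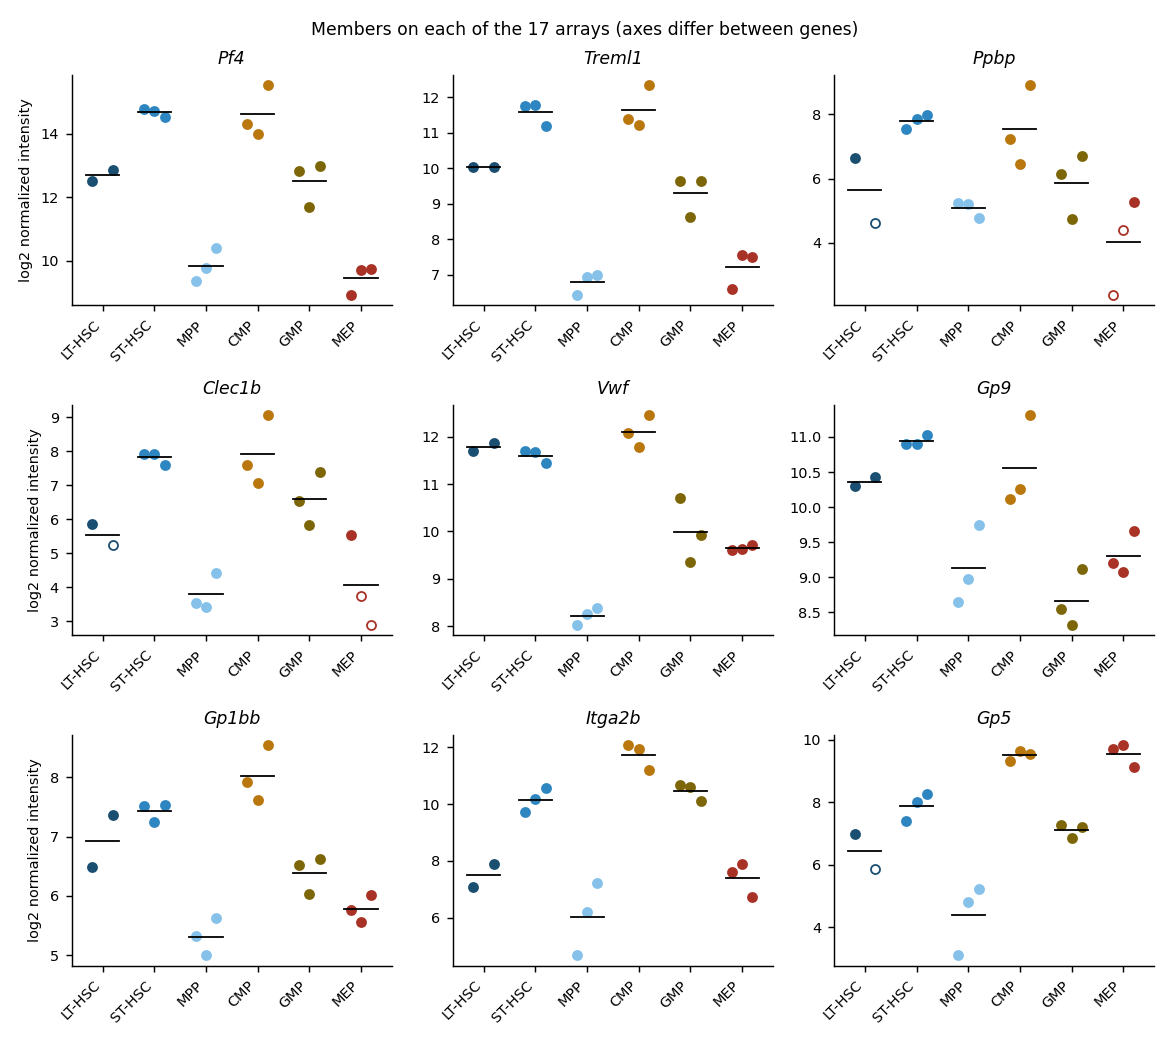
Each panel plots 1 gene, with a point for each of the 17 arrays by population on the x axis, log2 normalized intensity on the y axis and a line at the population mean; open points were not well above background. ST-HSC and CMP were the highest populations for most genes, at 14.68 and 14.62 for Pf4. MPP and MEP were the lowest for most genes, except that Gp5 was highest in MEP at 9.55.

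The chemokines stored in α-granules had their lowest population mean in MEP. Pf4, platelet factor 4, was read by a probe at positions 91202275 to 91202334 of chromosome 5 (mm9), close to the Ppbp probe at 91198970 to 91199029. Its normalized log2 intensity was 12.50 and 12.87 on the LT-HSC arrays and 14.78, 14.73 and 14.52 on the ST-HSC arrays. On the MPP arrays it was 9.35, 9.77 and 10.41. It was 14.32, 13.99 and 15.54 in CMP, 12.83, 11.70 and 13 in GMP, and 8.92, 9.69 and 9.72 in MEP. Thus every LT-HSC, ST-HSC, CMP and GMP array lay above every MEP array, and MPP overlapped MEP. Pf4 was 18.9-fold higher in stem cells than in MEP, a log2 difference of 4.24 ± 0.39 (SE; adjusted p = 3.00e-06). Both ST-HSC and CMP were further from MEP (log2 differences of 5.23 ± 0.43 and 5.17 ± 0.43) than was LT-HSC (3.24 ± 0.48).

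Ppbp, the precursor of platelet basic protein, was dim throughout. It read 6.65 and 4.62 in LT-HSC, 7.56, 7.87 and 7.98 in ST-HSC and 5.25, 5.20 and 4.78 in MPP. The CMP arrays gave 7.23, 6.46 and 8.92, the GMP arrays 6.13, 4.73 and 6.71, and the MEP arrays 2.37, 4.4 and 5.28. Only 1 of 3 MEP arrays and 1 of 2 LT-HSC arrays were well above background, and an LT-HSC array fell within the MEP range. The log2 difference between stem cells and MEP was 2.71 ± 0.71 (adjusted p = 0.00926) and rested on ST-HSC, where it was 3.79 ± 0.79 (adjusted p = 0.00257), as LT-HSC alone was not called (1.62 ± 0.88, adjusted p = 0.195). The call was lost without the first MEP array (1.88, adjusted p = 0.0627) and with scanning run as a block (1.47 ± 0.84, adjusted p = 0.244), and the difference was 0.94 with normexp background correction and 1.49 in the authors' table.

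Vwf, von Willebrand factor, was the member with the steadiest level between the stem cell populations. Its brightest probe, at 125636551 to 125636610 of chromosome 6, read 11.69 and 11.86 in LT-HSC and 11.69, 11.67 and 11.44 in ST-HSC. It read 8.03, 8.27 and 8.39 in MPP, and 9.61, 9.63 and 9.72 in MEP, so that LT-HSC and ST-HSC met at 11.69. This placed every MPP array below every MEP array. In CMP the values were 12.07, 11.77 and 12.45, and in GMP 10.71, 9.36 and 9.92. Stem cells were 4.09-fold above MEP (log2 difference 2.03 ± 0.25, adjusted p = 3.12e-05), and MPP was 2.69-fold below it (-1.43 ± 0.27, adjusted p = 0.00121). A second Vwf probe, at 125635858 to 125635917, gave 1.3 ± 0.42 for stem cells against MEP (adjusted p = 0.0296), while on it LT-HSC alone was not called against MEP (1.15 ± 0.53, adjusted p = 0.123). The remaining probe, at 125554568 to 125554627, was designed on a cDNA clone and not on the RefSeq mRNA, and was above background on only 1 ST-HSC and 1 MPP array. The mean of the 3 probes gave 1.3 as well (adjusted p = 0.00365).

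The 3 members of the GPIb-IX-V complex, the platelet receptor for von Willebrand factor, did not follow one pattern. Gp9, a small subunit probed at 87729650 to 87729709 of chromosome 6, read 10.30 and 10.43 in LT-HSC and 10.90, 10.90 and 11.03 in ST-HSC. The MPP arrays gave 8.65, 8.98 and 9.75, the CMP arrays 10.11, 10.26 and 11.31, the GMP arrays 8.55, 8.32 and 9.12, and the MEP arrays 9.20, 9.07 and 9.66. Stem cells were 2.54-fold above MEP with no overlap (log2 difference 1.35 ± 0.31, adjusted p = 0.00357). Gp1bb, the β chain that is linked to the ligand-binding α chain, was probed at 18621107 to 18621166 of chromosome 16. Its values were 6.49 and 7.36 in LT-HSC, 7.52, 7.24 and 7.53 in ST-HSC, and 5.32, 5.0 and 5.62 in MPP. They were 7.93, 7.62 and 8.54 in CMP, 6.52, 6.03 and 6.63 in GMP, and 5.77, 5.56 and 6.01 in MEP. Gp1bb was thus highest in CMP, and stem cells were 2.63-fold above MEP (1.40 ± 0.25, adjusted p = 7.53e-04), a difference of 0.72 with normexp background correction.

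Gp5, the subunit that joins the complex last and is cleaved by thrombin, was the exception. Its probe lay at 30308347 to 30308406 of chromosome 16. The arrays read 6.99 and 5.87 in LT-HSC, of which the second was not well above background, 7.40, 8.01 and 8.26 in ST-HSC, and 3.11, 4.82 and 5.23 in MPP. They read 9.32, 9.65 and 9.54 in CMP, 7.27, 6.85 and 7.21 in GMP, and 9.69, 9.82 and 9.13 in MEP. CMP and MEP overlapped at the top and MPP was lowest. Stem cells were 5.23-fold below MEP (log2 difference -2.39 ± 0.42, adjusted p = 5.60e-04), with differences of -3.12 ± 0.52 in LT-HSC and -1.66 ± 0.46 in ST-HSC (adjusted p = 0.0157). MPP, which was not counted among the stem cells, was 35.7-fold below MEP (-5.16 ± 0.46). The difference between CMP and MEP was -0.04 (95% confidence interval -1.05 to 0.96; adjusted p = 0.99). The call in stem cells was lost with scanning run as a block (-1.53 ± 0.59, adjusted p = 0.0838), and on the slide shared by ST-HSC and MEP the difference was -0.86. Gp1ba, the ligand-binding α chain, is not one of the 9 genes and was looked up after its values were seen. Its mean was 7.30 ± 0.53 (SD, n = 2) in LT-HSC, 8.42 ± 0.29 in ST-HSC and 8.03 ± 0.20 in MEP (SD, n = 3), a log2 difference of -0.16 ± 0.32 between stem cells and MEP (adjusted p = 0.743). So the genes of one receptor complex gave differences from MEP on both sides of 0.

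Itga2b encodes the αIIb integrin, or CD41, and split the stem cells. The probe spanned 209 bases of chromosome 11, from 102319453 to 102319661, for a probe of 60 bases. It read 7.07 and 7.91 in LT-HSC but 9.73, 10.17 and 10.55 in ST-HSC. The values were 4.69, 6.22 and 7.21 in MPP, 12.06, 11.92 and 11.18 in CMP, 10.66, 10.59 and 10.12 in GMP, and 7.62, 7.89 and 6.73 in MEP. LT-HSC overlapped MEP, while ST-HSC, CMP and GMP lay wholly above it. The difference of 1.41 ± 0.48 between stem cells and MEP (adjusted p = 0.0363) therefore averaged 2.74 ± 0.53 in ST-HSC (adjusted p = 0.00153) and 0.08 ± 0.59 in LT-HSC (adjusted p = 0.954). That averaged call was lost when any of 5 arrays was left out (1.07, adjusted p = 0.157, without the unnumbered MEP array; 1.51, adjusted p = 0.068, without the first MEP array; 1.20, 1.40 and 1.31 without the unnumbered LT-HSC array, ST-HSC 3 and the unnumbered ST-HSC array), and it was 2.91 ± 0.52 with scanning run as a block. In that fit LT-HSC alone was at 1.78 ± 0.62 against MEP (adjusted p = 0.0596), so its closeness to MEP depended on the treatment of the runs. The averaged call was also lost with the replicate block (1.67 ± 0.64, adjusted p = 0.0704) and with MPP added to the stem cells (0.48, adjusted p = 0.442). Itgb3, the β3 chain that pairs with αIIb and was also looked up after its values were seen, was 3.05 ± 0.25 higher in stem cells (adjusted p = 1.22e-06), or 1.82 higher as the mean of all its probes. Unlike Itga2b, it was close in LT-HSC (10.43 ± 0.13, SD, n = 2) and ST-HSC (10.97 ± 0.17, SD, n = 3), against 7.65 ± 0.24 in MEP.

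The remaining surface proteins were Treml1, a receptor kept in α-granules until activation, and Clec1b, the CLEC-2 receptor for podoplanin. Treml1, probed at 48506365 to 48506424 of chromosome 17, read 10.03 and 10.04 in LT-HSC and 11.76, 11.79 and 11.19 in ST-HSC. It read 6.43, 6.92 and 6.99 in MPP, 11.39, 11.21 and 12.35 in CMP, 9.63, 8.63 and 9.64 in GMP, and 6.58, 7.55 and 7.50 in MEP. Like Pf4, it was far above MEP in stem cells, by 12.1-fold (3.60 ± 0.33, adjusted p = 3.06e-06), and overlapped MEP in MPP. Clec1b, probed at 129355215 to 129355274 of chromosome 6, read 5.86 and 5.24 in LT-HSC and 7.91, 7.93 and 7.61 in ST-HSC. It read 3.53, 3.42 and 4.42 in MPP, 7.59, 7.08 and 9.06 in CMP, 6.54, 5.82 and 7.40 in GMP, and 5.54, 3.75 and 2.89 in MEP. An LT-HSC array, the one without a number, and 2 of the 3 MEP arrays were not well above background, and LT-HSC overlapped MEP. The log2 difference of Clec1b between stem cells and MEP was 2.63 ± 0.58 (adjusted p = 0.00306). With so dim a MEP level its size depended on the background treatment, being 0.89 with normexp correction and 1.34 in the authors' table, both called. The call was lost with scanning run as a block (2.62 ± 0.95, adjusted p = 0.0658).

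Because stem cells and MEP were mostly scanned in different runs, each difference was also read within the shared slide. There, 1 ST-HSC array minus 1 MEP array gave 4.80 for Pf4, 3.69 for Treml1, 4.72 for Clec1b, 3.82 for Itga2b, 2.70 for Ppbp, 1.72 for Vwf, 1.52 for Gp1bb, 1.38 for Gp9 and -0.86 for Gp5. All 9 had the direction found over all arrays. No slide or run held both LT-HSC and MEP, and only the ST-HSC and MPP arrays, spread over the last 2 runs, link them in a fit with scanning run as a block. In that fit LT-HSC stayed higher in Pf4 (2.99 ± 0.58, adjusted p = 0.0043), Treml1 (2.25 ± 0.52, adjusted p = 0.0109) and Vwf (2.01 ± 0.47, adjusted p = 0.0109) and lower in Gp5 (-2.11 ± 0.70, adjusted p = 0.0497). Gp1bb was no longer called (1.12 ± 0.38, adjusted p = 0.052), and Gp9 was called higher (1.08 ± 0.30, adjusted p = 0.0257). Itga2b moved from 0.08 ± 0.59 without the block to 1.78 ± 0.62 with it (adjusted p = 0.0596). Ppbp moved from 1.62 ± 0.88 to 0.37 ± 1 (adjusted p = 0.821). Itga2b, Ppbp and Clec1b were called in neither fit.

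**Figure D2:**
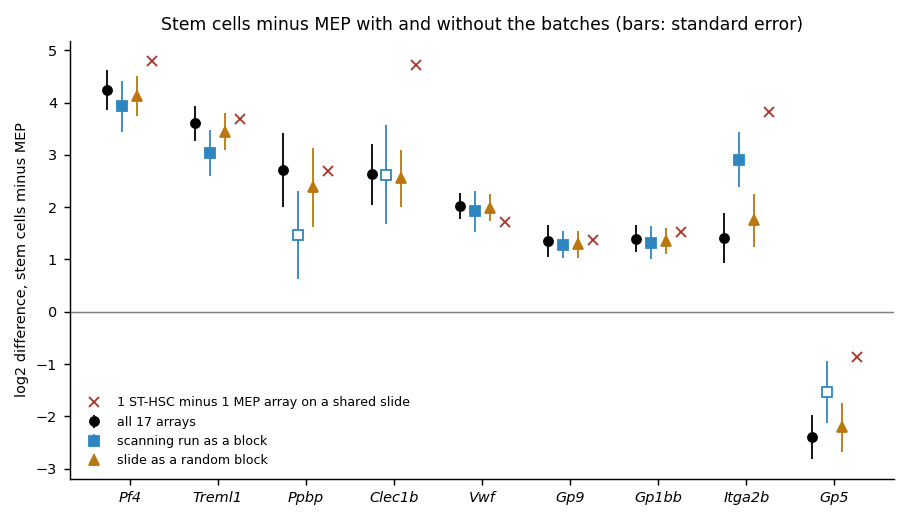
For each gene on the x axis, the log2 difference between stem cells and MEP is plotted over all arrays, with scanning run as a block and with slide as a random block (points with standard errors, filled where adjusted p was under 0.05), beside 1 ST-HSC minus 1 MEP array on their shared slide (crosses). Pf4 stayed between 3.93 and 4.80, whereas Itga2b ranged from 1.41 to 3.82.

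Set against MEP one population at a time, the number of genes that differed was largest in ST-HSC and smallest in MPP in the fit without blocks. With scanning run as a block or slide as a random block, ST-HSC and CMP were level at 8 genes. ST-HSC differed from MEP in 9 of 9 genes, of which 8 were higher (30.0% of probes were called in either direction). LT-HSC, with 2 arrays against 3 for ST-HSC, differed in 5 genes, with Pf4, Treml1, Vwf (by its brightest probe) and Gp1bb higher and Gp5 lower (30.0% of probes). Gp9 fell just short in LT-HSC (1.06 ± 0.38, adjusted p = 0.0504), though its arrays lay above every MEP array. MPP, which the sort distinguishes from ST-HSC by FLT3, differed in 2, Vwf and Gp5, both lower than in MEP (32.9% of probes). In CMP 8 genes were higher and Gp5 was not called (16.7% of probes). The log2 differences in CMP ran from 1.25 ± 0.34 for Gp9 (adjusted p = 0.0211) to 5.17 ± 0.43 for Pf4 (adjusted p = 2.53e-06), with Treml1 at 4.44 ± 0.37, Itga2b at 4.31 ± 0.53 and Clec1b at 3.85 ± 0.64 (1.49 with normexp background correction). GMP differed in 5, with Pf4, Treml1, Itga2b and Clec1b higher and Gp5 lower (17.4% of probes). In the pairs of GMP and MEP arrays 1, 2 and unnumbered, Gp9 was at -0.65, -0.75 and -0.54 and Gp1bb at 0.75, 0.47 and 0.62. With the replicate block both were called (adjusted p = 0.0472 for Gp9 and 0.029 for Gp1bb), and with scanning run as a block Gp9 (adjusted p = 0.023) and Ppbp (1.84 ± 0.61, adjusted p = 0.0463) were. By population mean, CMP was among the highest 2 populations for 9 of 9 genes, ST-HSC for 6 and MEP for 1. MPP was among the lowest 2 for 9 of 9 and MEP for 7.

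**Figure D3:**
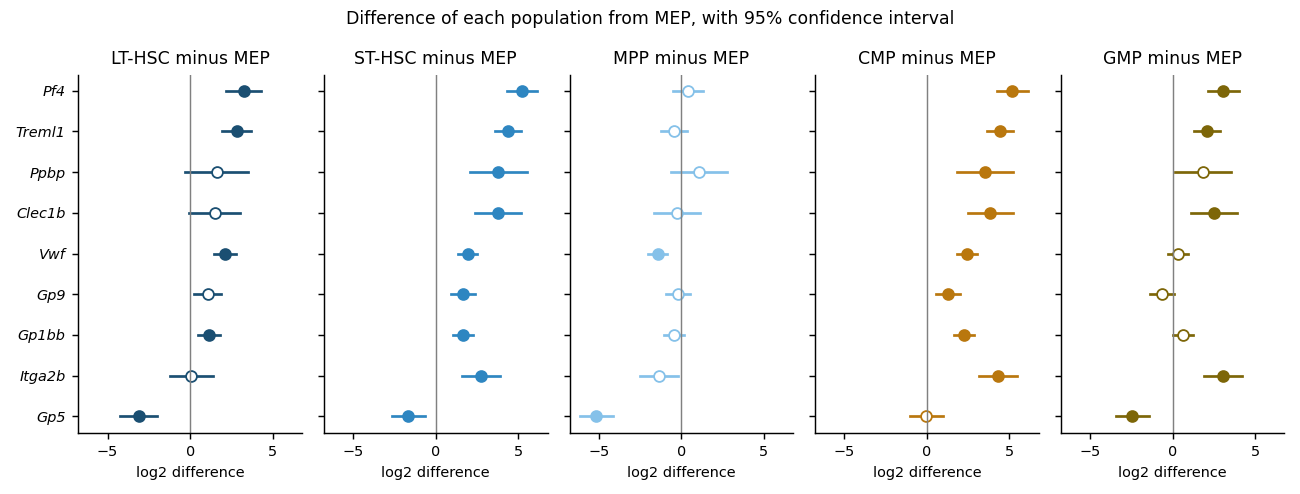
Panels show the log2 difference of LT-HSC, ST-HSC, MPP, CMP and GMP from MEP on the x axis for the 9 genes, with 95% confidence intervals; filled points had an adjusted p under 0.05. ST-HSC and CMP lie to the right of 0 for 8 genes, MPP lies near 0 for most, and Gp5 reaches -5.16 in MPP.

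Each CMP array had a MEP array in its run, and 2 of the 3 had one on their slide. For numbers 1 and 2, which lay on a slide each, CMP minus MEP was 5.40 and 4.29 for Pf4, 4.81 and 3.66 for Treml1, 4.44 and 4.03 for Itga2b and 2.46 and 2.14 for Vwf, and the unnumbered arrays of the second run gave 5.82, 4.85, 4.45 and 2.72. Ppbp, Gp1bb, Gp9 and Clec1b were higher in CMP in all 3 of these pairs as well. For Gp5 the 3 pairs gave -0.37, -0.17 and 0.41 and so had no common direction. The Gp9 call was lost without the unnumbered CMP array (0.88, adjusted p = 0.0869), the first MEP array (1.20, adjusted p = 0.0682) or the second MEP array (1.13, adjusted p = 0.0788).

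Neighbours in the order of levels were often not separated. For Pf4 the order was ST-HSC, CMP, LT-HSC, GMP, MPP and MEP, in which ST-HSC and CMP, LT-HSC and GMP, and MPP and MEP overlapped. Treml1 ran CMP, ST-HSC, LT-HSC, GMP, MEP and MPP, and only its first and last pairs overlapped. For Ppbp every pair of neighbours overlapped. Gp9 separated only LT-HSC from MEP, and Clec1b only ST-HSC from GMP. Itga2b separated CMP from GMP and ST-HSC from LT-HSC, with all other neighbours overlapping. Vwf overlapped between CMP and LT-HSC and between GMP and MEP. Gp1bb separated CMP from ST-HSC and GMP from MEP. For Gp5, CMP and MEP overlapped, as did GMP and LT-HSC.

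Within the stem cells, Pf4 and Itga2b were lower in LT-HSC than in ST-HSC, where 3.34% of probes differed. The log2 difference was -1.99 ± 0.48 for Pf4 (adjusted p = 0.0428) and -2.66 ± 0.59 for Itga2b (adjusted p = 0.0299). Treml1 (-1.54 ± 0.41, adjusted p = 0.0588), Clec1b (-2.27 ± 0.72), Ppbp (-2.16 ± 0.88) and Gp5 (-1.46 ± 0.52) had negative differences that did not pass. Of these, Treml1 was called with scanning run as a block (adjusted p = 0.0252), with normexp background correction (adjusted p = 0.0495) and without the unnumbered CMP array (adjusted p = 0.0441), Clec1b in the authors' table (adjusted p = 0.0411), Ppbp with the replicate block (-3.66, adjusted p = 0.0379) and Gp5 without MPP 2 (adjusted p = 0.0487). Vwf gave 0.18 ± 0.31 with an upper 95% limit of 0.84. With scanning run as a block Pf4 and Itga2b kept their calls (adjusted p = 0.0186 and 0.0122). Both calls were lost with slide as a random block (adjusted p = 0.115 for Pf4 and 0.0667 for Itga2b) and without either LT-HSC array. That of Itga2b was also lost with the replicate block (adjusted p = 0.122) and without ST-HSC 3 or the unnumbered ST-HSC array, and that of Pf4 at the 75th percentile (-1.97, adjusted p = 0.0696) and without any 1 of the 3 ST-HSC arrays or of MPP 2, MPP 3, CMP 1, GMP 1, the unnumbered GMP array or MEP 2. LT-HSC had a slide of its own, so slide and population cannot be told apart here.

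Beside these differences, markers of other cells also moved between stem cells and MEP. Of 12 erythroid markers 9 were called lower in stem cells, and their mean log2 level was 10.31 to 11.08 on LT-HSC arrays, 8.16 to 9.36 on ST-HSC arrays and 12.24 to 12.85 on MEP arrays. All 4 mast cell markers were called higher in stem cells, with means of 8.67 to 9.80 in ST-HSC, 5.94 to 6.37 in LT-HSC and 4.71 to 5.90 in MEP. Of these, Cpa3 was above background on every LT-HSC and MEP array, Mcpt8 on both LT-HSC arrays and 2 of 3 MEP arrays, Fcer1a on 1 LT-HSC array and 2 MEP arrays, and Ms4a2 on none of either. Of 5 mature neutrophil markers 1 was called higher, as were 4 of 6 granulocyte and monocyte markers, 4 of 5 T cell markers and 1 of 6 B cell markers. Endothelial cells also contain von Willebrand factor. Of 6 endothelial markers, 4 were called higher in stem cells (Emcn, Pecam1, Kdr and Tek) and 1 lower (Plvap), with a mean log2 level of 6.08 to 6.55 in LT-HSC, 6.14 to 6.36 in ST-HSC and 4.32 to 4.73 in MEP. Emcn had means of 10.57 in LT-HSC, 10.67 in ST-HSC and 4.69 in MEP, whereas Cdh5 was above background on no array of stem cells or MEP. Of the B cell markers, Ebf1 was above background on no array of any population. The part of cells of other lineages in the values of the 9 genes was not tested.

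Correlations across the 17 arrays, which share populations and runs and are given as a description, were lowest between Gp5 and Ppbp. Pf4 and Treml1 had the highest correlation of any pair (Pearson r = 0.99), and Treml1 and Gp1bb followed at 0.95. The values for Gp5 ran from 0.18 with Ppbp to 0.59 with Itga2b, a range that also held 2 pairs without Gp5, Itga2b with Gp9 (0.36) and Itga2b with Ppbp (0.58). Among 16763 other gene names, those most like Pf4 were Sdpr (0.97), Rbpms2 and Rab27b (both 0.96). Sdpr (0.98), Rab27b (0.97) and Ehd3 (0.96) were most like Treml1. Vwf was most like Reep2 (0.95), Apoe and Ehd3 (both 0.92), and Gp1bb was most like Ehd3, Sdpr and Sardh (all 0.91). Itga2b was nearest to Tuba8 (0.96), Fgf3 and Galnt6 (both 0.92). The genes most like Gp5 were Lphn2 (0.93), Gata1, the erythroid and megakaryocytic GATA factor, and Icam4, a red cell adhesion protein (both 0.92). Gp9 was most like Dlg3, Col18a1 and the stem cell marker Slamf1 (all 0.90), Ppbp like BE980448 (0.91), Gucy1b3 (0.89) and Rab27b (0.88), and Clec1b like AK044380 (0.89), Tesc and Pde10a (both 0.88).

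A wider set of megakaryocyte and platelet genes was read from 4 lists, with 57 of 60 listed names found on the array. Of the 57, 32 were higher in stem cells than in MEP, 7 were lower and 18 were not called, where 13.6% of all probes were higher and 20.0% lower. The listed genes too were read by their brightest probe, whereas the shares are over all probes, dim ones included. In MPP, where none of the 9 genes was called higher than in MEP (limma, also at an unadjusted p under 0.05), 28 of the 57 were higher and 10 were lower (14.7% and 18.2% of all probes). Among other platelet receptors and adhesion proteins, 8 of 17 were higher and 1 was lower, with a median log2 difference of 0.67. Where a gene was well above background on no MEP array, the MEP level was taken as the higher, on each array, of its own value and the lowest value of any probe well above background, and the fold is a lower bound. Jam3, a junctional adhesion protein, was such a gene and was at least 36.7-fold higher in stem cells (adjusted p = 1.65e-06). Its MEP values lay above the lowest detected level, so the bound is the measured difference on this scale and not a floor under other processing, and the log2 difference was 1.79 with normexp background correction, 2.75 in the authors' table and 2.68 as the mean of all its probes. Pear1, a platelet aggregation receptor, was higher by 4.60 ± 0.20 on the log2 scale (adjusted p = 8.81e-09), or by 1.69 as the mean of all its probes. Cd36, a scavenger receptor, was the one that was lower (-1.13 ± 0.35, adjusted p = 0.0223), with means of 6.52 in LT-HSC, 4.42 in ST-HSC and 6.60 in MEP. Its call was lost with scanning run as a block (adjusted p = 0.199), with the replicate block (adjusted p = 0.0762), with MPP added to the stem cells (-0.57, adjusted p = 0.196), and without the unnumbered LT-HSC (-1.06, adjusted p = 0.0605) or MEP array (-0.96, adjusted p = 0.0892). Esam of this list also stood in the stem cell marker list, and Lat, one of the genes called higher in the signalling list, in the T cell list.

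Granule and secreted proteins were higher in 8 of 13, the other 5 not being called, with a median of 2.18. Of the 13, 7 were well above background on no MEP array. Among these, Mmrn1, a multimerin of the α-granule, was at least 69.8-fold higher (adjusted p = 1.36e-07) and Timp3, a protease inhibitor, at least 12.1-fold (adjusted p = 4.18e-05). These bounds too are the measured differences on this scale, and the log2 differences were 2.96 and 1.53 with normexp background correction and 3.90 and 2.25 in the authors' table, and 3.23 for Mmrn1 as the mean of all its probes. Of 16 genes for cytoskeleton, signalling and secretion, 10 were higher and 2 lower (median 1.49). The G protein subunit Gng11 (4.59 ± 0.22) and the thromboxane synthase Tbxas1 (4.42 ± 0.21) were the largest. Pdlim1, an actin-associated protein, was lower (-1.42 ± 0.16), as was Fermt3, the integrin activator kindlin-3 (-1.33 ± 0.38, adjusted p = 0.0143), whose difference became 0.02 with scanning run as a block. The Fermt3 call was also lost with slide as a random block (-1.0, adjusted p = 0.0564), with the replicate block (-1.01, adjusted p = 0.143), without both LT-HSC arrays (-1.02, adjusted p = 0.0934), and without MEP 1 (-1.12, adjusted p = 0.0756) or MEP 2 (-1.20, adjusted p = 0.0636).

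The transcription regulators of the lineage divided. Of 11, 6 were higher in stem cells and 4 were lower, with a median of 0.89. Fli1, an ETS factor, was higher by 3.59 ± 0.27 and Mef2c by 2.40 ± 0.28 (1.59 as the mean of all its probes), while Gata1 (-3.67 ± 0.36, adjusted p = 4.98e-06) and Gfi1b (-1.61 ± 0.20) were lower. The other 2 that were lower were Zfpm1 (-0.76) and Tal1 (-0.60), both known to act with Gata1 in red cells and megakaryocytes. In CMP, compared with the same MEP arrays, 7 of the 11 were higher and 4 lower, where 9.43% of all probes were higher and 7.24% lower.

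**Figure D4:**
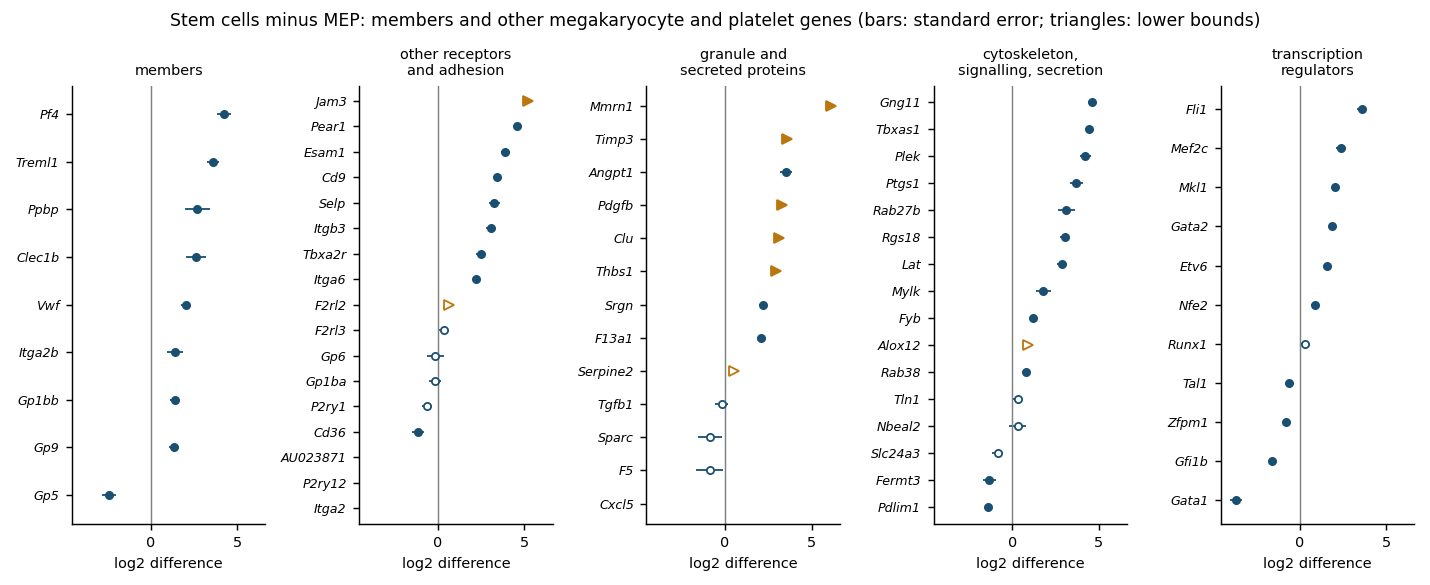
Each point is a gene with its log2 difference between stem cells and MEP on the x axis and its standard error, or, as a triangle, the lower bound of a gene well above background on no MEP array; filled symbols had an adjusted p under 0.05, and genes are ordered within the 9 members and each of the 4 lists. Genes with no symbol had no difference to give at this signal. Most filled symbols lie above 0, with Mmrn1 at a bound of 6.12 on this scale, while Gata1 (-3.67) and Gp5 (-2.39) are the lowest of their groups.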

How the data were processed

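The authors hybridised RNA from 17 samples to single-color Agilent whole mouse genome arrays and deposited the scanner output, in which each spot intensity was background-subtracted by Feature Extraction, and a table of log2 values. Here log2 processed intensities were brought to a common distribution by quantile normalization across 45018 spots. Apart from 1639 control spots there were 43379 spots, and those of the same probe were averaged without spots marked as outliers, which gave 41174 probes. Intensity is relative, so no probe was set against another. Gene names came from the newer design annotation, held in 6 files, and were carried to the others by probe name. The brightest probe stood for a gene.

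In limma 3.58.1 (R 4.3.3), lmFit and eBayes were run on the 17 arrays with a mean for each population, following the methods, and p-values were adjusted by Benjamini-Hochberg over all probes at 0.05. The number of arrays limits the precision. Data were simulated for stem cells against MEP on 41174 probes, with independent noise and no effect of run or slide. In them 100 probes were changed by a log2 size of 1 and 100 by 2. Of these changes 39.0% and 63.0% were recovered, and 0.0195% of unchanged probes were called. Far fewer probes changed there than were called in the arrays, so these rates do not carry over to the real comparison.

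The members and lists were chosen with earlier results of these data known. Every member was named, and the lists were given by counts with their 2 largest called changes each way. For each member the 3 other genes with the highest correlation were named, among genes well above background on at least 6 arrays. Tubb1 and Myl9 were not among these names (an older annotation in other files calls a probe Myl9, and was not used), G6b was an alias of Mpig6b, which was listed as AU023871, and Esam was listed as Esam1. One further gene of these lists is not reported here and enters none of their counts. Promoters were RefSeq sequences on GRCm38.p6 for 8 of 9 members, Vwf excepted.

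Alternatives covered the scaling (75th percentile), the background (normexp, offset 50), the authors' own table, whose ranks were closer to the mean signal before background subtraction than to the processed signal, dim probes (kept if well above background on at least 3 arrays) and blocks (scanning run, slide, replicate number). Others averaged a gene's probes, kept 1 probe per gene name, took ST-HSC alone, added MPP to the stem cells, or dropped each array in turn.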

Additional observations from a re-analysis of the deposited data

Results flagged for a closer look

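The contrast of LT-HSC with ST-HSC given above is also the difference between their contrasts with MEP, since MEP cancels, and it passed the threshold for Pf4 and Itga2b. LT-HSC minus ST-HSC was -1.99 for Pf4 (SE 0.48, adjusted p = 0.0428) and -2.66 for Itga2b (SE 0.59, adjusted p = 0.0299). Neither was called when slide was a random block or when either LT-HSC array was dropped. The LT-HSC arrays were 2, on a slide of their own, and 1 of them had the dimmest signal of the 17. LT-HSC and its slide cannot be told apart.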

How the results depend on the processing

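The 8 genes called higher in stem cells than in MEP numbered 6 to 8 under the 11 other settings and 6 to 8 with an array left out. With scanning run as a block, 0 genes were called lower by limma, since Gp5 lost its call (1 at an unadjusted p under 0.05). The 2 calls between LT-HSC and ST-HSC became 1 at the 75th percentile (without Pf4), 0 with slide as a random block (5 at an unadjusted p under 0.05), and 0 to 3 with an array left out. All 9 genes differed among the populations under the 10 settings run for that test. The counts of members called in LT-HSC, ST-HSC, MPP, CMP and GMP against MEP stayed within 1.5 times under all settings run for them, the replicate block included (CMP 7 to 8, ST-HSC 8 to 9, LT-HSC 4 to 7, GMP 4 to 7, MPP 2 to 3).

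Replicate numbers did not pair stem cells with MEP: the deviations of ST-HSC 2 and MEP 2 correlated at -0.01, while ST-HSC 2 and MPP 2, on a shared slide, did at 0.52. A shared slide did not always go with a correlation. The unnumbered ST-HSC and MEP, on 1 slide, gave 0.06, while the unnumbered ST-HSC and MPP, on different slides, gave 0.67. CMP and GMP arrays correlated with the MEP array of their number or run at 0.13 to 0.51. With the replicate block 6 genes were called higher and 1 lower, without Ppbp (1.63, adjusted p = 0.109) and Itga2b (1.67, adjusted p = 0.0704). With MPP counted among the stem cells Itga2b was at 0.48 (adjusted p = 0.442), and Treml1 (2.26), Clec1b (1.66), Vwf (0.88), Gp9 (0.84) and Gp1bb (0.77) were called with smaller differences. The value of Gp5 in CMP against MEP was -0.25 to 0.09 with an array left out. Gp1ba was called lower with MPP added (-1.26, adjusted p = 0.00443), was -0.90 with scanning run as a block (adjusted p = 0.106), turned to 0.40 without both LT-HSC arrays and was -0.35 to 0.02 with an array left out. Fermt3 turned to 0.02 with scanning run as a block. The causes were not tested. Dim probes limit Ppbp and Clec1b, whose MEP values were well above background on 1 of 3 arrays. At the 75th percentile the median of all probes shifted by 0.28 between stem cells and MEP and by -0.49 between CMP and MEP, and the calls of Gp9 in CMP (1.11, adjusted p = 0.0652) and of Cd36 (-0.44, adjusted p = 0.293) were lost. Normexp background correction and the authors' table kept every member call in stem cells against MEP, with smaller differences for the dim Ppbp, Clec1b and Gp1bb.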
